A study of Mus musculus with 12 samples.

Results

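The cytosolic ribosomal protein genes were followed in 2 sorted cell fractions of the mouse hippocampus, by the vector the animals had received. Members were the protein-coding genes whose mouse symbol is Rpl or Rps with a number, with Rplp0, Rplp1, Rplp2 and Rpsa added and the Rps6k kinases and pseudogenes left out. The annotation held 84 such genes, 46 core genes and 6 paralogs of the large subunit and 31 core genes and 1 paralog of the small subunit, on 19 chromosomes. Of these, 82 were listed by Ensembl identifier in both count tables, which list 27866 genes for astrocytes and 30359 for microglia. The paralogs Rpl10l and Rpl39l were listed for microglia alone.

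In each fraction, 3 libraries came from animals given AAV-A2A and 3 from animals given AAV-GFP. Both vectors were AAV2/9 driven by the astrocytic GfaABC1D promoter and were injected in both CA1 areas of C57Bl6/J mice aged 2 months, with AAV-A2A carrying the adenosine A2A receptor and AAV-GFP, taken as the control, carrying GFP. Astrocytes were isolated 2 months later with magnetic beads against ACSA-2, an astrocyte surface antigen, and microglia with beads against CD11b from the cells that the first beads had not retained. Only CA1 was injected and whole hippocampi were sorted, so that the cells in a library need not all carry the vector. The study's supplement counts as many animals as libraries in each astrocyte group, and for microglia the animals behind a library are not given in the sources used here, so that p-values there measure only the spread between libraries. Whether the libraries of the fractions came from the same animals is not given either, and the fits over all 12 libraries treated them as independent. Libraries are named by vector and number, for example GFP-303.

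Cytosolic ribosomes are built from ribosomal RNA and a set of proteins present in about equal numbers, and the genes of these proteins are among the most transcribed in most cells. Their mRNAs are short and begin with a tract of pyrimidines, the TOP motif, through which mTOR and the RNA-binding protein LARP1 set their translation. Nearly every gene of the family has left processed pseudogenes, copies of its mRNA inserted elsewhere in the genome, and these copies decide which reads can be assigned to the gene.

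The counts used here are of reads of 50 bases that aligned to a single place and fell on a single gene. To show which part of each member such reads can reach, every 50-base window of the coding sequence was looked up in all annotated transcripts. In the median member, 9.2% of coding windows were found in no other gene, against 100% in the median of 17447 other protein-coding genes. The share was 0% in 30 members, under 20% in 60 and over 50% in 15. It was 100% in the paralogs Rpl3l and Rpl39l. At least 1 identical window in an annotated pseudogene was found for 81 of the 84 members, and the member with the most such copies shared windows with 120 pseudogenes. The windows were compared with annotated transcripts and not with the whole genome, so that a copy outside the annotation was not seen.

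4 coding sequences, from GENCODE vM21 on GRCm38 (mm10), are shown because the results on vector and fraction turn on these members. Rps27 (chr3:90212522-90213651, minus strand) and its paralog Rps27l (chr9:66946086-66949516, plus strand) each have 252 coding bases, of which 60 differ and 76.2% are identical. Capitals mark the bases that differ between them.
Rps27: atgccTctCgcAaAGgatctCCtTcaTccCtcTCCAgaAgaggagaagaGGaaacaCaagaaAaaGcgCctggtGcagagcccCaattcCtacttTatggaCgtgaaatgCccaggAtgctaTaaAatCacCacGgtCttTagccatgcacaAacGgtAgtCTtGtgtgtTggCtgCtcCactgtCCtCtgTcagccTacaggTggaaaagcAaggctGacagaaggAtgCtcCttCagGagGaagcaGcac
Rps27l: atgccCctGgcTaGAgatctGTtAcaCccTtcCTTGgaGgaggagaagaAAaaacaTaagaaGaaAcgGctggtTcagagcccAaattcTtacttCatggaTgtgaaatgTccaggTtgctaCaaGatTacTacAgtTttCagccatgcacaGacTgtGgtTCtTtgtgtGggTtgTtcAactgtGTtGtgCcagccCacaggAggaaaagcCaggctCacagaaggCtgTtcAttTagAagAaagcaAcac
The differing bases are spread along the whole of both genes, and yet 0% of the coding windows of Rps27 were unique, because its pseudogenes repeat them, against 51.7% of those of Rps27l.

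In the other pair of sequences, capitals mark the bases covered by a unique window, with up to 10 flanking bases in lower case. Rpl22l1 (chr3:28805436-28807424, plus strand) had 99 such bases, and with their flanks the stretch shown runs over coding positions 79 to 197. In Rpl10a (chr17:28328471-28331033, plus strand) they were 52 bases at the very start.
Rpl22l1, coding bases 79 to 197: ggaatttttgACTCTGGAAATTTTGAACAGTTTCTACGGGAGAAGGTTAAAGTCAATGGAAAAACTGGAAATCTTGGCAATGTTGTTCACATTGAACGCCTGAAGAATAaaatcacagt
Rpl10a, coding bases 1 to 62: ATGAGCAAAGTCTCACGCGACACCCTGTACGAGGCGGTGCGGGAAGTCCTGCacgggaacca
15.8% of the coding windows of Rpl22l1 and 0.50% of those of Rpl10a were unique. Reads from the rest of these coding sequences match another annotated gene exactly.

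The level of a member followed this share more than its length. Levels are given as CPM, the counts of a gene scaled within each fraction by library total and edgeR's TMM factors. In the AAV-GFP astrocytes, the 30 members with 0% unique coding windows had a median of 2.30 CPM. The median was 7.95 CPM in the 30 members with up to 20%, 31.3 CPM in the 9 with 20 to 50% and 33.0 CPM in the 13 with over 50%. The same order held in the AAV-GFP microglia, at 3.57, 10.1, 28.4 and 46.2 CPM, with the paralogs Rpl10l and Rpl39l in the last class there. Across members within a library, Spearman's rho of the level with the unique share was 0.67 to 0.73 in the 6 astrocyte libraries and 0.48 to 0.57 in the 6 microglia libraries, and its rho with mRNA length was 0.09 to 0.22 over all 12. These points share a library and its depth, and genes are not independent replicates. Levels compared between members therefore carry the mappable share of each gene beside its expression.

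**Figure D1:**
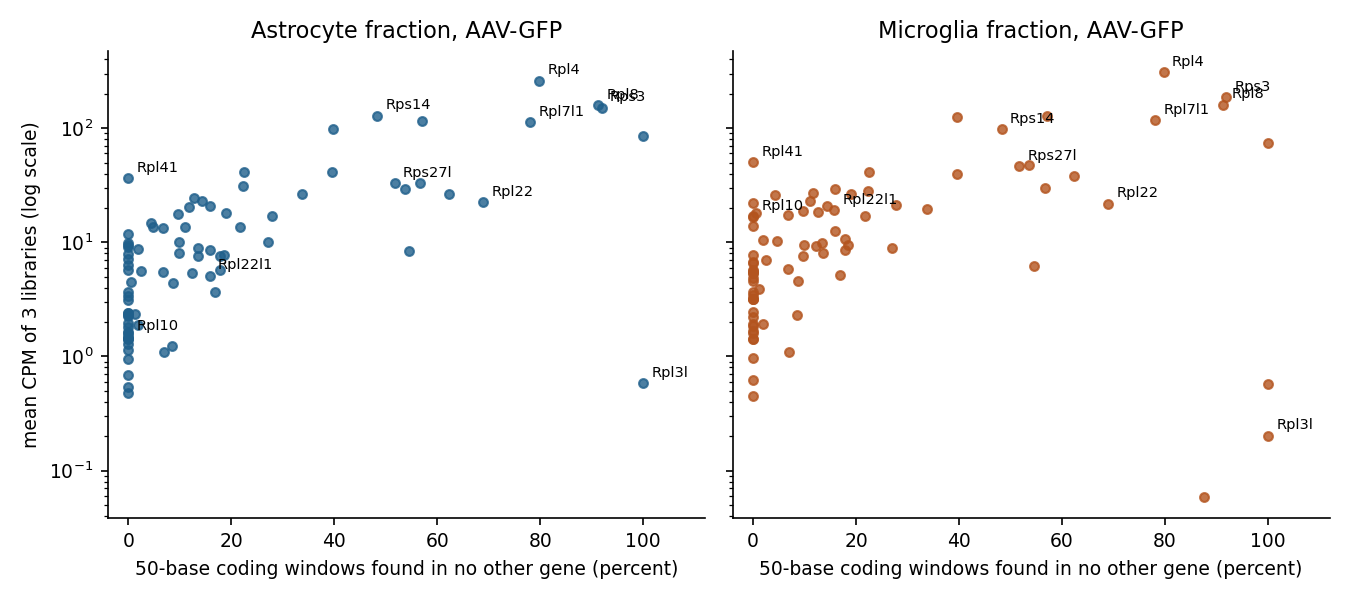
Mean level in the AAV-GFP libraries (CPM, log axis, n = 3) of each member against the percentage of its 50-base coding windows found in no other annotated gene, by fraction. The members with 0% unique windows lie lowest, with a median of 2.30 CPM in astrocytes and 3.57 CPM in microglia, and those over 50% highest, with 33.0 and 46.2 CPM.

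Per kilobase of mRNA, the highest members in AAV-GFP astrocytes were Rps14 with 215 ± 49.5 CPM per kilobase (SD, n = 3), Rpl8 with 187 ± 38.3 and Rpl4 with 170 ± 21.0. Rps14 is a core protein of the small subunit, and Rpl8 and Rpl4 are core proteins of the large subunit. In AAV-GFP microglia the highest were Rpl4 with 202 ± 32 CPM per kilobase, Rpl8 with 189 ± 27.1 and Rps9, a small subunit protein, with 171 ± 45.8. These neighbours were not separated by their spread between libraries. In the whole order, 0 pairs of neighbours in astrocytes and 1 in microglia, Rpl5 above Rpl3l, did not overlap. The lowest were Rpl3l, Rpl17 and Rpl24 in astrocytes, with 0.42, 0.62 and 0.80 CPM per kilobase, and Rpl10l, Rpl3l and Rpl5 in microglia, with 0.06, 0.15 and 0.69. Rpl17, Rpl24 and Rpl5 are core genes of every ribosome and none had a unique coding window, whereas Rpl3l and Rpl10l are the paralogs known from muscle and testis. The counts were concentrated, and the 5 most abundant members held 43.4% of the members' CPM in astrocytes and 42.3% in microglia.

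Of all counts on genes, 0.102 to 0.258% fell on members, in libraries of 33937067 to 53206974 counts. In astrocytes the share was 0.216, 0.161 and 0.182% in GFP-303, GFP-306 and GFP-307 (0.187 ± 0.0278%, SD, n = 3) and 0.248, 0.211 and 0.169% in A2A-309, A2A-310 and A2A-313 (0.209 ± 0.0397%). The AAV-GFP and AAV-A2A astrocytes overlapped. In microglia it was 0.205, 0.258 and 0.211% in GFP-2328, GFP-2329 and GFP-2331 (0.225 ± 0.0285%) and 0.186, 0.102 and 0.114% in A2A-2343, A2A-2344 and A2A-2347 (0.134 ± 0.0452%). All 3 AAV-A2A microglia libraries lay below the 3 AAV-GFP ones, and A2A-2343 was nearest to them. The 95% Wilson interval for the lowest library was 0.101 to 0.103%, and such intervals cover the counting of reads only, which were not collapsed by molecular identifiers. The 222 listed ribosomal protein pseudogenes held at most 0.0030% of a library's counts. In these bulk libraries, fewer cells of a type and less RNA per cell cannot be told apart.

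**Figure D2:**
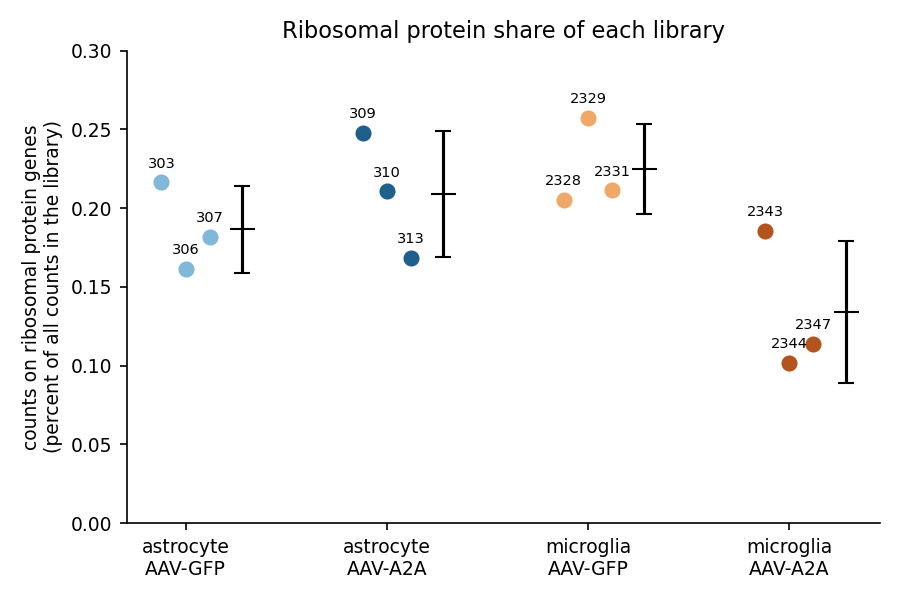
Percentage of all counts on genes that fell on cytosolic ribosomal protein genes, 1 point per library, with a line at each group mean and a bar for the SD over 3 libraries. The AAV-A2A microglia lie at 0.102, 0.114 and 0.186%, below every AAV-GFP microglia library, and the astrocyte groups overlap.

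The libraries were checked against their labels. Adora2a, which encodes the A2A receptor, had 24.5, 23.0 and 25.1 CPM in AAV-GFP astrocytes and 757, 656 and 945 CPM in AAV-A2A astrocytes, a log2 fold change of 5.02 ± 0.21 (SE; edgeR quasi-likelihood test, Benjamini-Hochberg adjusted p = 1.55e-05). In microglia it had 3.96, 4.79 and 8.07 CPM under AAV-GFP and 17.8, 43.3 and 16.3 CPM under AAV-A2A (2.20 ± 0.54, adjusted p = 0.28). The 12 astrocyte markers summed to 27825 to 44969 CPM in the astrocyte libraries and to 293 to 591 CPM in the microglia libraries. The 12 microglia markers summed to 510 to 867 CPM in the astrocyte libraries and to 12038 to 84554 CPM in the microglia libraries. All markers of both lists were above 0 in every library, so that their mere presence does not separate the fractions. The microglia libraries stood apart from one another. Choroid plexus markers summed to 80879, 65515 and 121 CPM in GFP-2328, GFP-2329 and GFP-2331 and to 80.1, 13.6 and 33970 CPM in A2A-2343, A2A-2344 and A2A-2347, led by Ttr, the carrier of thyroid hormone. The microglia markers summed to 12038, 24609 and 82365 CPM and to 84554, 60679 and 29842 CPM in the same order, so that 3 of the 6 libraries, 1 of AAV-GFP and 2 of AAV-A2A, held little choroid plexus RNA. Results on microglia are therefore also given for GFP-2331, A2A-2343 and A2A-2344 alone, a choice made after the data were seen.

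In the first comparison, the vectors were compared in astrocytes, to find whether the A2A receptor changed the ribosomal protein mRNAs of the cells that carry it. No member changed past the test. Of the 82 members tested, 0 were called at an adjusted p under 0.05 and an absolute log2 fold change over 0.32, against 3.36% of the 16451 genes tested (0.176% higher and 3.19% lower). 0 members had an unadjusted p under 0.05, against 4.31% of all genes higher and 8.70% lower. DESeq2 called 0 members, against 1.47% of its genes higher and 5.38% lower, and limma-voom called 0. The members' log2 fold changes nevertheless lay above 0 in 70 of 82, against 51.6% of all genes, with a median of 0.23 against 0.02 over all genes. The median was 0.11 without GFP-306, 0.14 without A2A-309 and 0.36 without GFP-303 or A2A-313. With the trend on length and GC content removed it was 0.089, with 53 members above 0. The length in this trend is that of all annotated exons of a gene joined. Large subunit members had a median of 0.23 and small subunit members of 0.21.

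The members with the largest fold changes in astrocytes, among those with a mean of at least 5 CPM, were in the large subunit. Rpl10a, a protein of the mobile stalk at the tRNA exit, had 5.03, 3.68 and 4.64 CPM under AAV-GFP and 9.04, 6.98 and 5.71 CPM under AAV-A2A. The groups did not overlap, and the log2 fold change was 0.70 ± 0.40 (SE; edgeR adjusted p = 0.53). Rpl27 had 12.1, 7.86 and 7.34 CPM and 19.2, 12.8 and 11.4 CPM (0.67 ± 0.35, edgeR adjusted p = 0.49), and here A2A-313 lay below GFP-303. The paralog Rpl36al had 11.4, 8.07 and 9.15 CPM and 15.1, 14.5 and 12.4 CPM (0.55 ± 0.30, edgeR adjusted p = 0.51), without overlap. Groups did not overlap in 11 members that were higher under AAV-A2A and in 1 that was lower, against 8.61% and 10.9% of all genes.

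That 1 member was Rpl27a, a core protein of the large subunit with no unique coding window. It had 12.7, 4.81 and 6.21 CPM under AAV-GFP and 4.44, 1.87 and 4.16 CPM under AAV-A2A. The log2 fold change was -1.18 ± 0.53 (edgeR adjusted p = 0.39), the most negative of the 82. GFP-303 was highest for it, as it was for 57 of the 82 members among the AAV-GFP astrocytes. Rpl21, a core protein of the large subunit, had 9.31, 7.15 and 4.93 CPM and 7.07, 5.7 and 6.95 CPM (-0.12 ± 0.39, edgeR adjusted p = 0.96). Its groups overlapped, and its fold change turned positive without GFP-303.

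In the second comparison, the same vectors were compared in microglia, cells that the promoter does not target. Members lay lower under AAV-A2A, but none passed the adjusted test. 77 of 82 had a log2 fold change below 0, against 52.1% of the 16949 genes tested, and the median was -0.83 against -0.05 over all genes, which is 0.56 times the control level. 0 members were called, as were 0% of all genes tested with edgeR. 15 members had an unadjusted p under 0.05, all lower, against 16.0% of all genes in either direction and 6.27% lower. This count was 37 without A2A-2343 (all genes 18.2%), 17 without GFP-2331 (23.8%) and 9 without GFP-2328 (7.67%). It was 4 without GFP-2329 (5.28%), A2A-2344 (6.98%) or A2A-2347 (18.1%). With the trend on length and GC content removed it was 1 (7.25%). It was 23 with limma-voom (16.9%) and 27 with at least 10 counts in every library (20.7%). In the 3 libraries with little choroid plexus RNA alone the members' median was -0.61. DESeq2 called 2 members, Rps27l and Rpl22l1, both lower, against 1.17% of its genes lower and 1.29% higher, and limma-voom called 0. The core genes had a median of -0.81 and the paralogs of -1.10, and the large and small subunits had medians of -0.83 and -0.82. With the trend on length and GC content removed the paralogs' median was -0.29.

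Rps27l, a paralog of Rps27 known as a target of p53, had 45, 65.7 and 27.9 CPM in GFP-2328, GFP-2329 and GFP-2331 and 9.48, 4.81 and 14.4 CPM in A2A-2343, A2A-2344 and A2A-2347. Each AAV-A2A library lay below every AAV-GFP library, and the log2 fold change was -2.27 ± 0.52 (edgeR adjusted p = 0.28; DESeq2 -2.29, adjusted p = 0.016). In the 3 libraries with little choroid plexus RNA it was -1.96. Its mRNA has 499 bases, and the fold changes of other protein-coding mRNAs of up to 500 bases had quartiles of -1.91 and -0.53. Its parent Rps27 had 4.99, 5.84 and 3.68 CPM under AAV-GFP and 3.16, 3.93 and 3.04 CPM under AAV-A2A (-0.52 ± 0.44, edgeR adjusted p = 0.59), with overlap. The difference between paralog and parent was not tested.

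Rpl22l1, the paralog of Rpl22, had 20.4, 19.3 and 17.4 CPM under AAV-GFP and 6.79, 7.36 and 7.59 CPM under AAV-A2A. The libraries of each vector were close together and the groups far from overlapping, with a log2 fold change of -1.40 ± 0.32 (edgeR adjusted p = 0.28; DESeq2 -1.40, adjusted p = 0.0097). It was -1.30 in the 3 libraries with little choroid plexus RNA. Its mRNA has 552 bases, and the fold changes of other protein-coding mRNAs of 500 to 750 bases had quartiles of -1.52 and -0.46. Rpl22 itself, an RNA-binding protein of the large subunit that bulk translation can do without, had 23.4, 20.4 and 21.6 CPM and 25, 11.1 and 17.7 CPM (-0.28 ± 0.37, edgeR adjusted p = 0.73), and its groups overlapped.

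Among the core genes, Rpl41, the shortest ribosomal protein, had 54.9, 67.4 and 29.4 CPM under AAV-GFP and 23.3, 10.7 and 18.4 CPM under AAV-A2A (-1.53 ± 0.44, edgeR adjusted p = 0.28), without overlap. Rps14 had 83.0, 125 and 84.5 CPM and 62.2, 26.0 and 39.2 CPM (-1.20 ± 0.39, edgeR adjusted p = 0.28), also without overlap. Rpl41, with 437 bases, and Rps14, with 597, both lay within the quartiles of other protein-coding mRNAs of their length. These were -1.91 to -0.53 for up to 500 bases and -1.52 to -0.46 for 500 to 750. In all, the groups did not overlap in 35 members that were lower, against 10.9% of all genes, and in 1 that was higher, against 12.6%. The latter was Rpl5, with 1.60, 1.27 and 1.40 CPM against 1.93, 2.15 and 2.87 CPM, a gene with no unique coding window.

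Other abundant members lay within the spread of the libraries. Rpl4 had 262, 311 and 360 CPM under AAV-GFP and 414, 207 and 197 CPM under AAV-A2A (-0.19 ± 0.41, edgeR adjusted p = 0.84). Rpl8 had 138, 159 and 184 CPM and 156, 64.8 and 81.1 CPM (-0.67 ± 0.40, edgeR adjusted p = 0.44). A2A-2343 was the highest of the 6 libraries for Rpl4 and lay among the controls for Rpl8, and it was the highest AAV-A2A library for 59 of the 82 members. At the upper end, among members with a mean of at least 5 CPM, were Rpl10a with 11.5, 14.0 and 28.8 CPM and 26.8, 40.6 and 17.8 CPM (0.65 ± 0.49, edgeR adjusted p = 0.53), Rpl7l1 with 0.15 and Rpl30 with 0.04, and both of the latter changed sign under other settings. Without A2A-2343 the median of the members was -1.14, and over all libraries left out in turn it was -1.14 to -0.66.

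The lower level of members went with the length of the mRNA. Among other protein-coding genes in microglia, the median log2 fold change was -1.23 for mRNAs of up to 500 bases, -1.05 for 500 to 750, -0.83 for 750 to 1000 and -0.57 for 1000 to 1500, and it turned to 0.47 for 3000 to 5000 bases and 0.53 above 5000. The members in the 4 shortest classes had medians of -0.95 (n = 19), -0.90 (n = 24), -0.67 (n = 21) and -0.63 (n = 12), so that they lay beside other mRNAs of their length. With each library's trend on exon length and GC content removed, the members' median was -0.12 and that of all genes 0.20. That trend used the joined length of all annotated exons of a gene, not the mRNA length of the classes. Other mRNAs of up to 1000 bases took 7.66, 9.31 and 8.86% of the counts in the AAV-GFP microglia and 6.77, 3.91 and 4.16% in A2A-2343, A2A-2344 and A2A-2347. The order of the AAV-A2A libraries was that of the member share, with A2A-2343 nearest to the controls. In the 3 libraries with little choroid plexus RNA the members' median was -0.61, with 75 below 0 and 0 called. Red cell markers summed to 2578, 6219 and 1007 CPM under AAV-GFP and to 250, 223 and 63.0 CPM under AAV-A2A, led by Hbb-bs, a beta globin gene. Neuronal markers summed to 172, 254 and 31.8 CPM under AAV-GFP and to 14.4, 20.7 and 13.1 CPM under AAV-A2A, and ependymal markers to 448, 678 and 292 CPM and to 150, 87.0 and 175 CPM. None of these 3 sums overlapped between the vectors. The part of length, choroid plexus RNA, red cells, neurons and ependymal cells in the lower member levels was not tested beyond these values.

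**Figure D3:**
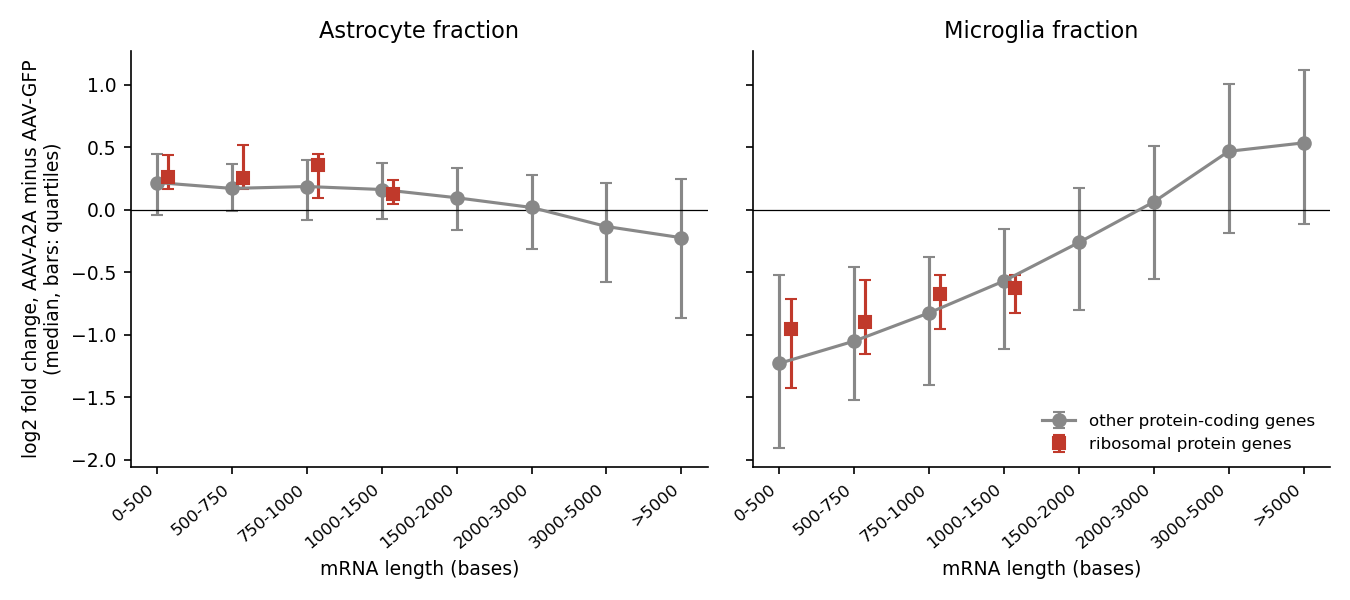
Median log2 fold change, AAV-A2A against AAV-GFP, of members and of other protein-coding genes by class of mRNA length (bases), by fraction. In microglia the other genes go from -1.23 at up to 500 bases to 0.53 above 5000, and the members lie beside them at -0.95 in the shortest class, and in astrocytes the other genes go from 0.22 to -0.22. Bars give the quartiles, and classes with under 5 members show none.

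In the third comparison, the fractions were set side by side in the AAV-GFP animals, in 1 fit of all 12 libraries and of the genes listed in both tables. A small number of members were lower in astrocytes. Of 82 members tested, 6 were called lower and 0 higher, against 14.4% and 12.3% of 18602 genes. The median log2 difference, astrocytes over microglia, was -0.22 against -0.11 over all genes. With single libraries left out it ranged from -0.40 (GFP-303 left out) to -0.078 (GFP-2329 left out), and it was -0.12 with the trend on length and GC content removed, where that of all genes was 0.10. Groups did not overlap in 17 members that were lower and 4 that were higher, against 24.2% and 23.9% of all genes. With GFP-2331, A2A-2343 and A2A-2344 as the only microglia libraries, the members' median was -0.21 and that of all genes 0.18. GFP-2328 and GFP-2329 held much choroid plexus RNA, and its part in the differences between the fractions was not tested. The difference of fraction cannot be told apart from that of the separate tables and sorts, and levels are given as CPM scaled jointly over the 12 libraries.

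Rpl10, which is among the last to join the large subunit and stands near its catalytic centre, had 1.79, 1.44 and 1.39 CPM in AAV-GFP astrocytes and 14.5, 14.9 and 20.8 CPM in AAV-GFP microglia. The fractions were far apart, with a log2 difference of -3.44 ± 0.55 (SE; edgeR quasi-likelihood test, Benjamini-Hochberg adjusted p = 0.0011). Rpl10a had 5.13, 3.71 and 4.73 CPM and 10.9, 13.7 and 29.6 CPM, again without overlap (-2.00 ± 0.47, edgeR adjusted p = 0.0091). Both were called lower in astrocytes in all 24 alternative settings, the AAV-A2A libraries included, in which Rpl10 differed by -2.80. Rpl22l1 had 7.33, 2.99 and 5.23 CPM and 19.4, 18.8 and 17.9 CPM (-1.85 ± 0.40, edgeR adjusted p = 0.0057), and it was called in 23 of the 24 settings. The exception was the comparison of AAV-A2A libraries, where it was -0.14 (edgeR adjusted p = 0.79).

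The other 3 were low in both fractions. Rps27, a zinc finger protein of the small subunit, had 1.12, 1.47 and 1.36 CPM in astrocytes and 4.74, 5.70 and 3.78 CPM in microglia (-1.85 ± 0.52, edgeR adjusted p = 0.022). Rps13 had 2.30, 1.74 and 3.04 CPM and 6.06, 6.27 and 6.97 CPM (-1.45 ± 0.42, edgeR adjusted p = 0.026). Rpl9 had 1.05, 1.92 and 1.39 CPM and 7.28, 6.59 and 5.87 CPM (-2.18 ± 0.66, edgeR adjusted p = 0.030). No value of 1 fraction reached the other in any of the 3, which were called in 17, 14 and 15 of the 24 alternative settings.

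All 6 members that differed between the fractions had under 20% unique coding windows, as did 60 of the 84 members. Rpl10, Rps27, Rps13 and Rpl9 had 0% unique coding windows, Rpl10a 0.50% and Rpl22l1 15.8%. Over the whole mRNA the unique share was 7.87% in Rpl10, 1.35% in Rps27, 17.0% in Rps13 and 13.3% in Rpl9. It was 11.9% in Rpl10a and 34.4% in Rpl22l1, against 41.3% in the median member. The 13 members with over 50% unique coding windows had a median difference of -0.03. None of them was called, against 6 of all 82 members. The windows were looked up in 1 mRNA per gene, whereas reads were counted by gene. The annotated exons of Rpl10, for example, join to 2053 bases and its mRNA has 799. Where the counted reads of these 6 genes lay was not examined. A part of them could belong to a copy, so that the levels of these genes are uncertain. Whether the copies contribute was not tested.

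**Figure D4:**
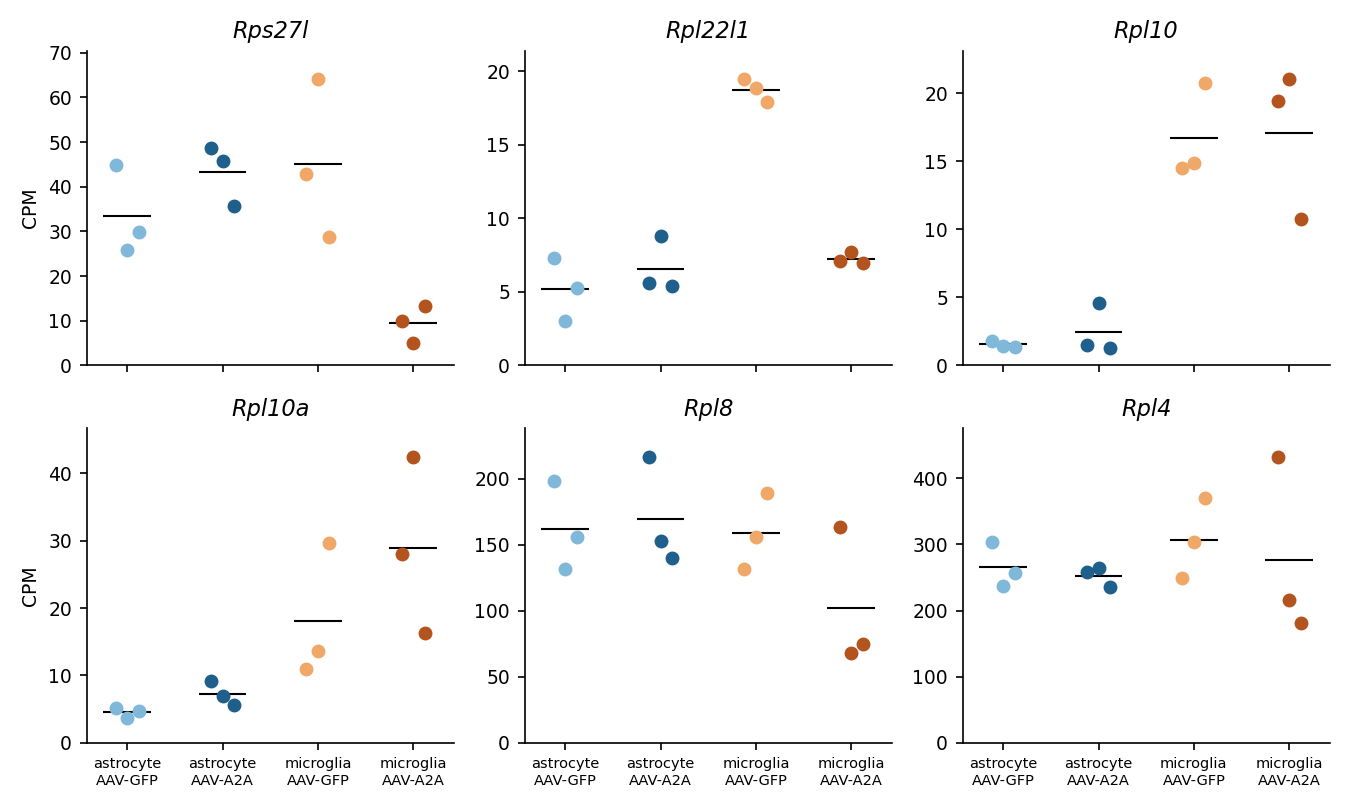
Levels by library (CPM scaled jointly over the 12 libraries) of Rps27l, Rpl22l1, Rpl10, Rpl10a, Rpl8 and Rpl4, by fraction and vector, with a line at the mean of 3 libraries. Rps27l and Rpl22l1 are lower in AAV-A2A than in AAV-GFP microglia without overlap, Rpl10 and Rpl10a are lower in AAV-GFP astrocytes than in AAV-GFP microglia, and the groups of Rpl8 and Rpl4 overlap.

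At the upper end of the fraction comparison, read among members with a mean of at least 5 CPM, no member passed the test. Rpl27 had 12.3, 7.94 and 7.47 CPM in astrocytes and 5.29, 6.89 and 4.49 CPM in microglia, a log2 difference of 0.73 ± 0.41 (edgeR adjusted p = 0.20), without overlap. Rps21 and Rplp2 followed with 0.49 ± 0.51 and 0.48 ± 0.37. The call count depended on the vector. Between the AAV-A2A libraries, 22 members were called higher in astrocytes and 2 lower, against 3899 genes higher and 4658 lower of 18602. The members' median difference was 0.68 against -0.05 over all genes, and Rps27l turned from -0.43 ± 0.40 to 2.20. Other protein-coding mRNAs of up to 500 bases had a median difference of 0.51 under AAV-GFP, those of 500 to 750 bases of 0.68 and those of 750 to 1000 bases of 0.55. The members of these classes had medians of 0.04, -0.46 and -0.12. The difference between members and other short mRNAs was not tested.

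In the fourth comparison, the vector effect in astrocytes was tested against that in microglia. Members lay higher in astrocytes, but 0 of 82 were called with edgeR, against 0.0376% of 18602 genes higher and 0.366% lower. 78 members lay above 0, against 52.8% of all genes, with a median of 0.96 against 0.10. 18 had an unadjusted p under 0.05, all higher, against 8.28% of all genes higher. Among members with a mean of at least 5 CPM, Rps27l led with a difference of 2.63 ± 0.57 on the log2 scale (edgeR adjusted p = 0.062), from 0.40 in astrocytes and -2.27 in microglia. Rpl41 followed with 1.81 ± 0.50 (edgeR adjusted p = 0.099), Rpl38 with 1.74 ± 0.77 (edgeR adjusted p = 0.24) and Rpl22l1 with 1.71 ± 0.55 (edgeR adjusted p = 0.13). At the other end were Rpl27a with -0.60, Rpl10a with -0.00 and Rpl7l1 with 0.02.

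The call depended on the tool and on single libraries. DESeq2 called 11 members higher, against 3.81% of its genes, namely Rpl19, Rpl22l1, Rpl31, Rpl34, Rpl35, Rpl36al, Rpl41, Rps15, Rps23, Rps25 and Rps27l. With edgeR, 7 members were called higher without A2A-2343, where 186 of 19514 genes were called higher and 644 lower, and 2 without GFP-2331, where 359 of 19454 were called higher and 927 lower. Rps27l alone was called when at least 10 counts in every library were asked for, with 55 of 12050 genes higher and 290 lower. The length trend of the other mRNAs ran the same way, from a median of 1.5 at up to 500 bases to -0.86 above 5000, and with the trend on length and GC content removed the members' median was 0.13 and 0 were called.

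**Figure D5:**
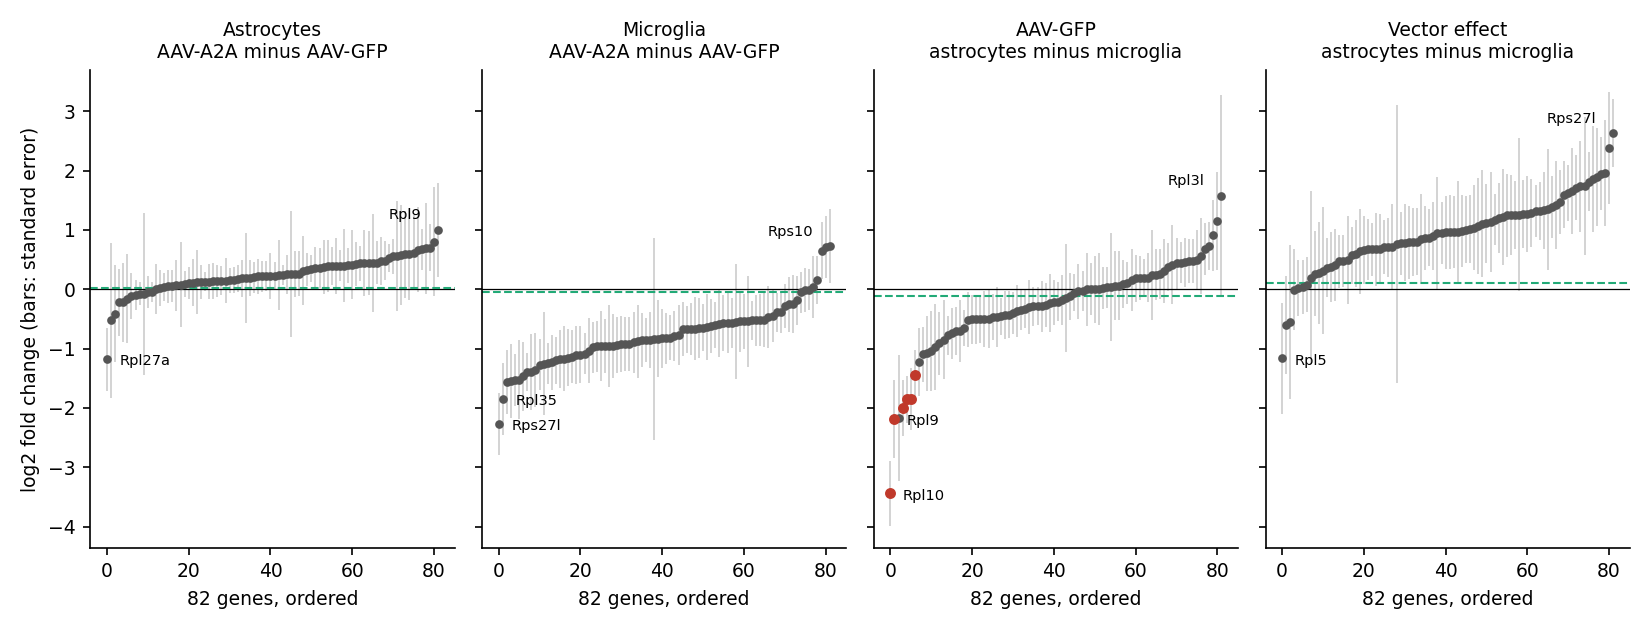
Log2 fold change of each member in the 4 comparisons, in order, with bars for the standard error and a dashed line at the median of all genes tested. Members called are in red. In microglia 77 of 82 members lie below 0 around a median of -0.83, in astrocytes 70 lie above 0 around 0.23, and the 6 members called are those lower in astrocytes than in microglia under AAV-GFP.

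With edgeR, none of the remaining paralogs was called in the 4 comparisons as fitted with all libraries. Rpl36al was called higher by DESeq2 in the difference of vector effects, by edgeR there without A2A-2343, and by edgeR between the AAV-A2A libraries of the fractions. Rpl7l1, which despite its name is known as a factor of ribosome assembly in the nucleolus, was the most abundant, with 121, 110 and 107 CPM in AAV-GFP astrocytes and 128, 121 and 150 CPM in AAV-A2A astrocytes (0.24 ± 0.17, edgeR adjusted p = 0.65). Its parent Rpl7 had 45.4, 37.1 and 40.7 CPM and 54.2, 34.6 and 37.7 CPM (0.04 ± 0.23). Rpl36al had 14.4, 14.5 and 13 CPM in AAV-GFP microglia and 10.1, 3.39 and 6.06 CPM in AAV-A2A microglia (-1.10 ± 0.48, edgeR adjusted p = 0.32), and its parent Rpl36a had 2.37, 1.41 and 1.75 CPM and 0.76, 0.40 and 0.94 CPM (-1.39 ± 0.64, edgeR adjusted p = 0.34). Neither of this pair overlapped between the vectors, and neither has a unique coding window. A read that matches more than 1 place equally well is counted for no gene. Rpl3l, the paralog of striated muscle, stayed at 0 to 1.14 CPM over the 12 libraries, with no call, whereas Rpl3 had 19.3, 26.4 and 32.1 CPM in AAV-GFP microglia. In the microglia table Rpl10l was at 0 in 5 libraries and at 0.18 CPM in GFP-2328, and Rpl39l at 0 to 1.5 CPM. Rpl39, the parent of Rpl39l, had a microglial fold change of -1.11 ± 0.49 on the log2 scale. Rps4x had -0.26 ± 0.46, and its copy Rps4l is annotated as a pseudogene and was not a member.

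The stalk proteins Rplp0, Rplp1 and Rplp2, which recruit the elongation factors, were not called between the vectors in either fraction. Rplp0 had 107, 95.9 and 91.6 CPM in AAV-GFP astrocytes and 114, 106 and 101 CPM in AAV-A2A astrocytes (0.13 ± 0.16). In microglia it had 100, 148 and 131 CPM and 125, 58.6 and 59.0 CPM (-0.65 ± 0.39, edgeR adjusted p = 0.45), with A2A-2343 among the controls. Rplp1 and Rplp2 had microglial log2 fold changes of -0.85 ± 0.47 and -0.98 ± 0.43. Rps6, the substrate of the S6 kinases, had 3.78, 4.37 and 1.34 CPM and 1.14, 1.1 and 1.45 CPM in microglia (-1.36 ± 0.63, edgeR adjusted p = 0.34), and GFP-2331 lay with the AAV-A2A libraries. Rpl5 and Rpl11, which can bind Mdm2 when they are not in a ribosome, differed by 0.71 ± 0.52 and -0.54 ± 0.52 there, and Rpsa, also known as the laminin receptor precursor, by -0.25 ± 0.49. Rps6, Rpl5 and Rpl11 had no unique coding window, and with edgeR none of these genes was called in the 4 comparisons as fitted with all libraries.

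Fau encodes a further ribosomal protein, made as a fusion with a ubiquitin-like protein, which the rule on symbols does not take. It had 11, 10.1 and 10.6 CPM in AAV-GFP astrocytes and 13.8, 12.7 and 9.79 CPM in AAV-A2A astrocytes (0.19 ± 0.30, edgeR adjusted p = 0.89). In microglia it had 8.52, 6.67 and 3.30 CPM and 3.13, 2.63 and 3.66 CPM (-0.97 ± 0.51, edgeR adjusted p = 0.39). The groups overlapped in both fractions, and GFP-2331 lay among the AAV-A2A microglia.

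The wider translation machinery was read from lists that were drawn up with earlier results known. In astrocytes 5 of these genes were called, all lower under AAV-A2A, and none of them encodes a part of the ribosome. Of 16 other genes with TOP mRNAs, 1 was called, lower under AAV-A2A. It was Eef2, the elongation factor that moves the ribosome along, with 374, 417 and 346 CPM under AAV-GFP and 223, 136 and 149 CPM under AAV-A2A (-1.16 ± 0.22, edgeR adjusted p = 0.018). Of 32 initiation factors, 1 was called, Eif3a, the scaffold of the eIF3 complex, which fell from 182, 241 and 189 CPM to 74.9, 72.7 and 60.3 CPM (-1.56 ± 0.19, edgeR adjusted p = 0.0028).

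The list for mTOR signalling and the LARP family had 34 genes and also held Myc, Cnbp and Pdk1, a pyruvate dehydrogenase kinase. Of these 34, 3 were called, all lower in AAV-A2A astrocytes. Larp1, which binds TOP mRNAs and holds back their translation, fell from 201, 196 and 318 CPM to 87.6, 54.5 and 71.3 CPM (-1.75 ± 0.25, edgeR adjusted p = 0.0057). Mtor fell from 41.2, 66.3 and 73.5 CPM to 27.4, 17.3 and 22.3 CPM (-1.43 ± 0.28, edgeR adjusted p = 0.022) and Myc from 30.0, 29.7 and 43.6 CPM to 13.8, 7.45 and 14.3 CPM (-1.54 ± 0.32, edgeR adjusted p = 0.031). In all 5 genes the vectors did not overlap. With the length and GC trend removed, Mtor was no longer called (edgeR adjusted p = 0.11) and the other 4 were. None of the 72 ribosome biogenesis factors (median 0.12), the 14 genes of RNA polymerase I or the 78 mitochondrial ribosomal proteins tested (median 0.19) was called in astrocytes, and the call rate over all genes was the 3.36% given above. In microglia 0 genes were called in every list.

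The mitochondrial ribosome is the closest counterpart of the family, with short mRNAs but few copies. The median gene of its list had 100% unique coding windows and an mRNA of 1252 bases, and 42 of 78 were unique throughout. In microglia its genes had a median log2 fold change of -0.73 and lay below 0 in 77 of 77, against 77 of 82 members with a median of -0.83. The vectors did not overlap in 42 of the 77, all lower, against 35 of 82 members and 10.9% of all genes. Ribosome biogenesis factors, with longer mRNAs, had a median of 0.15 there. Of 9 listed mRNAs encoded by the mitochondrial genome, 8 were tested in microglia, with a median of -2.34 and all 8 below 0. The sums over the 9 listed were 15090, 10617 and 2287 CPM in the AAV-GFP and 2045, 1999 and 1794 CPM in the AAV-A2A microglia. GFP-2331 thus lay near the AAV-A2A libraries.

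Between the fractions, under AAV-GFP, mitochondrial ribosomal protein genes were mostly called higher in astrocytes where they were called at all. Of the 78 genes, 34 were called higher and 1, Mrps2, lower, with a median difference of 0.78, against 0 higher and 6 lower of the 82 cytosolic members and 12.3% of all genes higher and 14.4% lower. With the length and GC trend removed, 24 were called higher and 0 lower. The smallest adjusted p-values were those of Mrpl21 (1.30, edgeR adjusted p = 0.0023), Mrpl17 (1.39), Mrpl27 (1.52), Mrpl35 (1.15) and Mrps34 (1.48). The same shares of all genes stand beside the counts of the lists that follow. Among ribosome biogenesis factors 15 of 72 were called lower in astrocytes and 1, Tsr2, a chaperone of a small subunit protein, higher (1.13), and 4 lower calls were left with the trend removed. Nop2, a methyltransferase of ribosomal RNA, differed by -2.34 (edgeR adjusted p = 0.0018), Nol9 by -1.61, Heatr1 by -2.17 and Wdr43 by -1.32. RNA polymerase I had 2 lower calls among its 14 genes, Polr1a and Taf1d.

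Initiation factors were called in both directions between the fractions, 3 higher and 4 lower in astrocytes of 32, beside 12.3% of all genes higher and 14.4% lower. Eif4a1, an RNA helicase, differed by -1.60 (edgeR adjusted p = 0.00075), Eif1ax by 1.34, Eif3i by 1.17, Eif1a by -1.08 and Eif3b by -0.94. Of the 16 other TOP mRNAs, Btf3 (1.14) and Eef1d (0.87) were called higher and Pabpc1 (-1.46) and Eif4b (-1.15) lower. Of the 34 genes of the mTOR and LARP list, 5 were called higher and 8 lower. Mlst8, a subunit of both mTOR complexes, differed by 1.84, and Larp4b, Larp4 and Akt1 by -1.50, -1.53 and -1.44. Pdk1, counted among the 8, differed by -1.46. This symbol is that of a pyruvate dehydrogenase kinase and not of a kinase in the mTOR pathway.

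The start of the mRNA is where the TOP motif lies, and RefSeq start sites on GRCm38 were read for it. A start site with promoter sequence was matched for 64 of the 84 members. A run of 6 or more C or T, read on the strand of the gene, lay within 20 bases before to 20 after the start in 43 of them (67.2%) and in 11102 of 26961 other genes (41.2%). A run is a description of these letters and no proof of a TOP motif, and a start that is off by some bases can miss one. 6 members are shown from 15 bases before to 15 after the start, with the longest such run in capitals, because they range from the long tracts of core genes to the paralogs with the largest microglial fold changes.
Rpl35, chr2:39005117-39005146, minus strand: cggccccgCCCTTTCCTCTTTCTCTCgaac
Rpl28, chr7:4792950-4792979, plus strand: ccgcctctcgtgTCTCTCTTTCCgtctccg
Rplp2, chr7:141447636-141447665, plus strand: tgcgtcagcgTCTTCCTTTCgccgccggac
Rps27, chr3:90213634-90213663, minus strand: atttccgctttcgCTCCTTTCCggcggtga
Rpl22l1, chr3:28805493-28805522, plus strand: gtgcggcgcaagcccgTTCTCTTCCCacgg
Rps27l, chr9:66946071-66946100, plus strand: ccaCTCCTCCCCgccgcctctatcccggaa
Rps27l, second start, chr9:66946398-66946427, plus strand: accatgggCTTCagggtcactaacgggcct
The run was of 18 bases in Rpl35, 11 in Rpl28, 10 in Rplp2 and Rpl22l1 and 9 in Rps27. In Rps27l it was of 9 bases before the first start and of 4 at the second. Both kinds of gene, core and paralog, thus hold such runs, and the members' fold changes were not compared by them.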

How the data were processed

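RNA was measured in 12 libraries, 3 per vector in each of 2 sorted fractions, assigned from the sample labels and column names. The authors made full-length cDNA (SMART-Seq v4) and Nextera XT libraries, trimmed reads with cutadapt 1.10, aligned them to mm10 with STAR 2.5.3 and counted uniquely aligned reads on single Ensembl genes with HTSeq 0.6.1p1. The tables hold these raw counts, as deposited by the authors. Strand is not given in the sources used here. Totals were 33937067 to 53206974 counts per library.

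The whole table was fitted with edgeR 4.0.16 (quasi-likelihood, TMM, filterByExpr, robust) in R 4.3.3, per fraction for the vectors and over all 12 libraries for the fractions and the difference of vector effects. Adjusted p-values are Benjamini-Hochberg values over all genes tested. Of 84 members, 82 entered each fit. Rpl10l and Rpl39l are not in the astrocyte table, and in the microglia fit Rpl39l passed the filter while Rpl3l and Rpl10l did not. DESeq2 1.42.0, limma-voom 3.58.1, other scalings and filters, an offset for length and GC content, and each library left out were alternatives. The offset used the joined length of all annotated exons of a gene, and the length classes used 1 mRNA per gene. The fits were tested on simulated data. Gene models are GENCODE vM21.

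The members, lists and tests were chosen with earlier results of these data known. Members named are those called, the 3 highest and 3 lowest per comparison with at least 5 CPM on average, the paralogs and their parents, the 3 highest and lowest per kilobase, the stalk proteins, Rpsa, Rps6, Rpl5, Rpl11 and Fau, and of each further list at most 5 called genes. Of the cell marker lists, sums are given. Rps14 in microglia, Rpl4, Rpl8 and Rps9 as examples outside their own ranks, and the genes called by DESeq2 alone, Mrps2, Polr1a and Taf1d, were named after their values were seen. Some genes that meet these rules are not reported here.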

Additional observations from a re-analysis of the deposited data

How the results depend on the processing

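No paired analysis was possible because the vector groups share no replicate numbers. With 3 libraries a group, calls per gene are limited by the spread between libraries and, for members under 5 CPM, by few reads. Of the values over all members and of shares, 246 kept their direction and side of the threshold under an alternative, 15 moved by more than the spread or by over 1.5 times, and 6 gained a call. Of the values of single members, 550 did, 31 changed sign, 27 lost a call and 13 gained one.

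In microglia, DESeq2 called 2 members lower. The members' median there was -0.038 with libraries scaled to the members and -0.12 with the length and GC trend removed. Rpl30 was -0.043 with limma-voom, -0.11 scaled to total counts and -0.052 with at least 10 counts in every library, and Rpl7l1 was -0.028 in GFP-2331, A2A-2343 and A2A-2344 alone. With 1 library left out, Rpl30 was -0.35 to 0.31 and Rpl7l1 -0.24 to 0.38. In astrocytes, Rpl21 was then -0.33 to 0.11.

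Between the fractions, the AAV-A2A libraries in place of AAV-GFP gave 22 higher and 2 lower calls among members and 3899 and 4658 among 18602 genes, a median of 0.68 and 2.20 for Rps27l. Scaling to the members gave 3 lower calls and a median of 0.041. Rps27l was 0.20 in the microglia with little choroid plexus RNA. With 1 library left out, 3 to 6 members were called lower, 3 of them without GFP-303, GFP-2328 or GFP-2329.

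For the vector effect in astrocytes against microglia, DESeq2 called 11 members higher and the filter of 10 counts 1. The median was -0.027 scaled to the members and 0.13 with the trend removed. Rpl10a was 0.048 with DESeq2, 0.062 with RLE scaling, 0.17 with total counts, 0.0013 with TMM without the members, 0.068 with the filter of 10 counts and 0.42 in the microglia with little choroid plexus RNA. Rpl7l1 was -0.91 scaled to the members and -0.27 with the trend removed. With 1 library left out, 0 to 7 members were called (7 without A2A-2343 and 2 without GFP-2331, where calls over all genes also rose), the median was 0.77 to 1.28, Rpl27a -0.95 to 0.044, Rpl10a -0.56 to 0.37 and Rpl7l1 -0.25 to 0.46.

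The share of counts without the 10 most abundant other genes in the total was 0.219% in AAV-GFP and 0.255% in AAV-A2A astrocytes and 0.264% in AAV-GFP and 0.150% in AAV-A2A microglia. The cause of these shifts was not tested.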
